A study of Homo sapiens with 12 samples.

Results

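S100A4, S100A6, S100A10, S100A11, S100A13, annexin A2 (ANXA2) and vimentin (VIM) were followed across 12 RNA libraries of a human multiple myeloma line that expressed different forms of the histone methyltransferase NSD2. The 7 genes were picked by name from the 60504 features of the expression table, with earlier results of these data known. The rule does not say which measured values led to the choice. The contrast between cells with wild-type NSD2 and cells with no vector is therefore treated as one the choice used, and its values are given as a description without tests. The comparisons of the mutant lines share libraries with that contrast, so their p-values are not independent of the choice.

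All libraries came from TKO cells, a derivative of the KMS-11 myeloma line that carries the genotype label KMS-11 WHSC1(+/-), where WHSC1 is an older name of NSD2. KMS-11 carries a t(4;14) translocation that raises NSD2, which puts methyl groups on lysine 36 of histone H3. The TKO group had no vector. The other groups carried an expression vector for wild-type NSD2 (WT), for NSD2 with the substitution D1240A, or for NSD2 with F1295A. Each of the 4 groups had 3 libraries labelled as biological replicates, and the series was designed to ask how mutant NSD2 alters gene expression. TKO cells with an empty vector were not analysed here, so the presence of a vector and the form of NSD2 cannot be told apart in comparisons with TKO. Nothing in the labels says whether a line is 1 clone, or whether replicates were separate cultures, so p-values measure only the spread between these libraries.

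S100 proteins are small calcium-binding proteins with paired EF-hand motifs that act mostly as dimers. On binding calcium they expose a surface that holds other proteins, among them annexins, non-muscle myosin and the cytoskeleton. S100A10 is the exception: it has lost calcium binding and forms a stable complex with annexin A2 that gathers plasminogen at the cell surface, where it is turned into plasmin. Annexins bind acidic phospholipids of membranes in the presence of calcium. Vimentin is the intermediate filament protein of mesenchymal and many blood-derived cells, and, with S100A4, it is widely read as a marker of the epithelial-to-mesenchymal transition.

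Expression is given in FPKM, a fragment count per length of the gene and per size of the library, after a rescaling between libraries. The depth is unknown, so values carry the standard deviation (SD) over the 3 libraries of a group and no counting interval. Between 11849 and 12237 genes reached 1 FPKM in each library. D1240A replicate 2 stood apart: structural RNA features held 63.7% of its FPKM sum, against 1.905% to 3.01% in the other 11 libraries. These features were left out, and the library was scaled by a log2 factor of -0.31, against -0.01 to 0.05 elsewhere. NSD2 RNA averaged 60.5 ± 2.27 FPKM in TKO, 191.8 ± 3.91 in WT, 252.3 ± 8.50 in D1240A and 165.2 ± 6.61 in F1295A (SD, n = 3). The D1240A line thus had more NSD2 RNA than WT (log2 difference 0.39, adjusted p = 5.3e-05) and the F1295A line less (-0.22, adjusted p = 0.0138). RNA of the vector and of the chromosomal gene cannot be told apart.

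The plasma cell label was checked against 10 marker genes. JCHAIN averaged 1742 FPKM in TKO and at least 3166 in the other groups, and XBP1, MZB1, IRF4, TNFRSF17, PRDM1 and POU2AF1 lay above 28 FPKM in every group. SDC1, the surface marker that defines plasma cells, was low at 4.04 FPKM in TKO and 0.237 to 0.280 in the vector lines, and CD38 stayed at 0.282 to 0.856. SLAMF7 was also low, at 0.489 FPKM in TKO, 0.706 in WT, 1.81 in D1240A and 1.12 in F1295A. Markers of other cell types in which S100 genes or vimentin are abundant were low. The 8 fibroblast markers summed to 1.41 to 4.05 FPKM, the 8 myeloid markers to 0.281 to 0.907, the 6 T and NK cell markers to 0.593 to 1.27, the 5 epithelial markers to 2.06 to 3.51 and the 3 endothelial markers to 0.148 to 2.10. COL1A2, COL3A1, FCGR3A, S100A8, S100A9, NKG7 and KRT19 were at 0 in every library. The fibroblast sum was highest in D1240A (2.79 to 4.05) and lowest in TKO (1.41 to 1.78), and the endothelial sum was highest in TKO (1.33 to 2.10, against at most 0.749 elsewhere). The part of these markers in the results was not tested. In bulk RNA, fewer cells of a type and less RNA per cell cannot be told apart.

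All 7 genes passed the filter on low values, by which 14411 genes were tested. They fell into abundant and scarce genes. VIM averaged 955.3 FPKM over the 12 libraries and ranked 136th of the tested genes, S100A11 averaged 573.7 (185th), ANXA2 283.4 (344th) and S100A6 143.2 (702nd). S100A10 averaged 7.28 FPKM, S100A13 3.93 and S100A4 3.87, at ranks 7945, 9462 and 9490. S100A11 alone gave 84.2% of the summed FPKM of the 5 S100 genes in TKO and 73.3% to 75.4% in the vector lines. That sum was 1142 ± 14.4 FPKM in TKO, 573.1 ± 10.5 in WT, 586.9 ± 6.09 in D1240A and 626.3 ± 5.07 in F1295A.

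**Figure D1:**
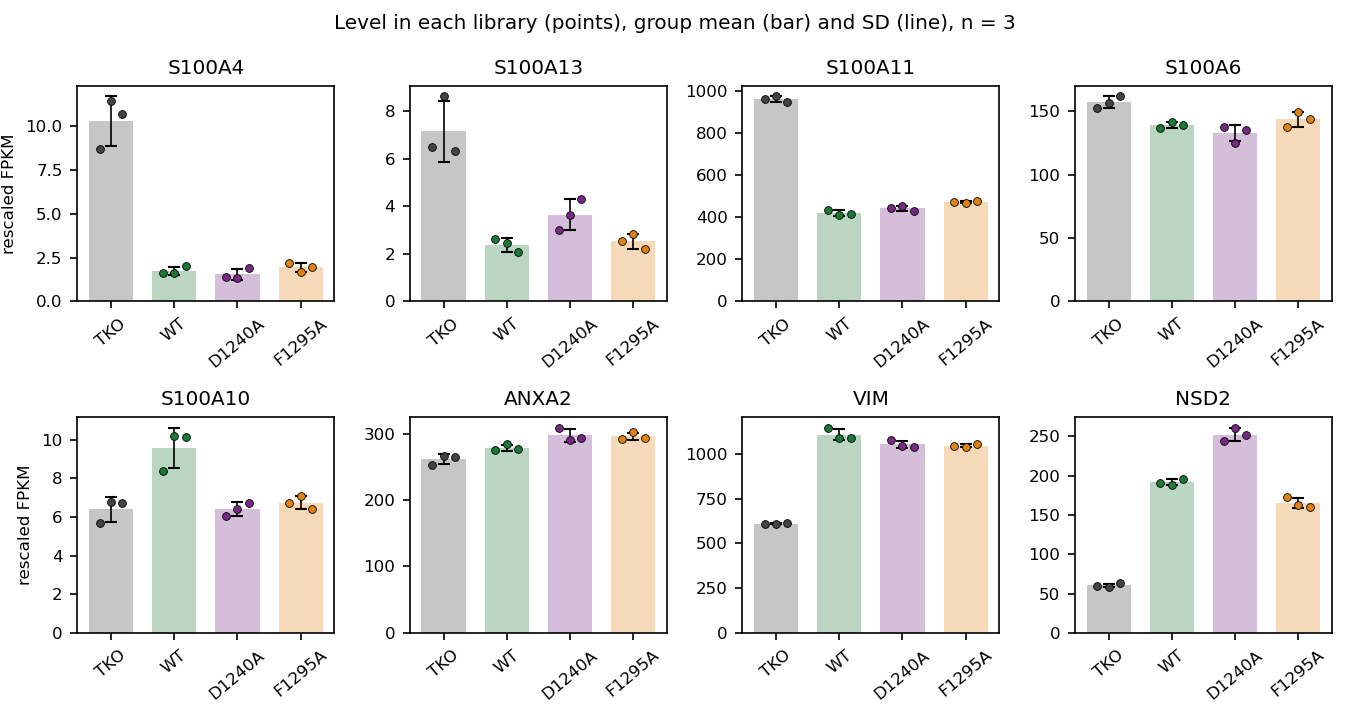
Rescaled FPKM of the 7 genes and of NSD2 in each of the 12 libraries, by group, with group means and SD. The scale of the vertical axis differs between genes. S100A4, S100A11 and S100A13 are highest in the 3 TKO libraries, VIM is lowest there, and S100A10 is highest in the 3 WT libraries.

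S100A4, S100A6, S100A11 and S100A13 were lower in the vector lines than in TKO cells. S100A4, which binds non-muscle myosin and is known from motile and metastatic cells, stood at 8.67, 11.4 and 10.7 FPKM in the TKO libraries. The WT libraries held 1.63, 1.61 and 2.00 FPKM, those of D1240A 1.38, 1.34 and 1.90, and those of F1295A 2.21, 1.68 and 1.94. All 9 vector libraries thus lay under all 3 TKO libraries, and the 3 vector lines overlapped each other. The TKO mean was 5.87-fold that of WT. S100A4 fell in D1240A (log2 difference from TKO -2.40, limma adjusted p = 7.9e-08) and in F1295A (-2.14, adjusted p = 1.8e-07), which were 6.67-fold and 5.29-fold under TKO. By the size of its difference S100A4 ranked 64th among the 14411 genes in D1240A and 103rd in F1295A. Log2 differences are of FPKM + 0.5, which shrinks those of scarce genes.

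S100A11, a partner of annexin A1 that is known from membrane repair and from growth control, had the largest drop of the abundant genes. Its TKO libraries held 959.6, 974.6 and 948.3 FPKM. The WT libraries held 435.6, 408.7 and 416.7, those of D1240A 443.2, 452.7 and 431.5, and those of F1295A 471.1, 467.6 and 475.0. The highest vector library, at 475.0, lay far below the lowest TKO library, and the spread within each group was small beside that gap. S100A11 fell by 1.12 on the log2 scale in D1240A (adjusted p = 1.6e-10) and by 1.03 in F1295A (adjusted p = 2.5e-10). The TKO mean was 2.29-fold that of WT, 2.17-fold that of D1240A and 2.04-fold that of F1295A.

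S100A13, which takes part in the export of FGF1 from cells, stood at 6.51, 8.63 and 6.32 FPKM in TKO. WT stood at 2.62, 2.46 and 2.07, D1240A at 2.99, 3.64 and 4.31, and F1295A at 2.53, 2.85 and 2.21. The TKO libraries were again the 3 highest, with D1240A between them and WT. S100A13 fell by 0.88 in D1240A (adjusted p = 4.0e-04) and by 1.33 in F1295A (adjusted p = 1.4e-05) against TKO, whose mean was 3.00-fold that of WT. The value is uncertain, because 24.2% of the exon bases of S100A13 are shared with AL162258.1 on the same strand and 10.6% with S100A1 on the opposite strand. AL162258.1 averaged 2.97 FPKM in TKO, 1.56 in WT, 2.24 in D1240A and 2.00 in F1295A.

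S100A6, or calcyclin, which is known from dividing cells and binds CACYBP, changed least of these genes. It stood at 152.5, 156.9 and 162.0 FPKM in TKO, at 136.6, 141.5 and 139.0 in WT, at 137.6, 125.4 and 135.4 in D1240A, and at 137.9, 149.4 and 144.3 in F1295A. The TKO libraries did not overlap those of any vector line. S100A6 fell by 0.24 in D1240A (adjusted p = 5.2e-04). In F1295A it fell by 0.13 (adjusted p = 0.0247). That call was lost in 7 of 23 alternative analyses, whose adjusted p reached 0.175, and it was lost without TKO replicate 2 (0.0573), TKO replicate 3 (0.0939), F1295A replicate 1 (0.0985) or F1295A replicate 3 (0.0520).

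To show what lies before the starts of S100A4, with the largest drop, and of S100A11, the most abundant of the S100 genes, the stretches free of annotated exons in the 250 bases before the RefSeq start are printed. They read 5′ to 3′ on the strand of the gene (GRCh38.p14, minus strand), and capitals mark GGGCGG, the GC box that Sp1-type factors bind. S100A4 is shown at chr1:153545886-153546056 (250 to 80 bases before the start) and S100A11 at chr1:152037036-152037254 (250 to 32 bases before the start). Each stretch lies within the span of its own gene, since GENCODE release 29 lists longer transcripts.
S100A4: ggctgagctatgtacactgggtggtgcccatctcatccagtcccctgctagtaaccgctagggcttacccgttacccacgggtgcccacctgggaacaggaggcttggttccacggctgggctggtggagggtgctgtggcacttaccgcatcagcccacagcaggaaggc
S100A11: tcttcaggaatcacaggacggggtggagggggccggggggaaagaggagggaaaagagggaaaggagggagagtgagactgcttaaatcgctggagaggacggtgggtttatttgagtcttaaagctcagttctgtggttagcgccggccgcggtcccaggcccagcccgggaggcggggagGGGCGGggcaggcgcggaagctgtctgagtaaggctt

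The windows of these genes differed in the motifs they held. The TATA box was searched as TATAAA, on both strands of all 250 bases. The GC box was searched in the same way as GGGCGG. The AP-1 motif was searched as TGANTCA. S100A4 held 1 TATAAA, 31 bases before the start and so outside the printed stretch, no GGGCGG and 7 CpG dinucleotides. S100A11 held no TATAAA, 1 GGGCGG 68 bases before the start, and 15 CpG. The S100A6 window held 3 GGGCGG and 24 CpG, and that of S100A10 held 1 GGGCGG and 24 CpG. S100A13 has 3 RefSeq starts, of which 1 had TATAAA 29 bases before it, 1 had the GC box 138 bases before it and 1 had none of the motifs. No S100 window held the AP-1 motif. The ANXA2 window held 1 AP-1 motif, 127 bases before the start, with 1 TATAAA 31 bases before it, 3 GGGCGG and 28 CpG. Of 35114 RefSeq windows of the same length, 10.7% held the TATA box, 42.6% the GC box and 6.57% the AP-1 motif. A match is a run of letters, not a site shown to be bound.

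VIM was the member that was higher in every vector line than in TKO by the widest margin. The TKO libraries held 609.8, 609.2 and 613.2 FPKM. Those of WT held 1147, 1088 and 1092, those of D1240A 1078, 1046 and 1042, and those of F1295A 1043, 1040 and 1055. The lowest vector library thus stood far above the highest TKO library, while the vector lines lay close to each other. VIM rose by 0.79 in D1240A (adjusted p = 1.5e-09) and by 0.78 in F1295A (adjusted p = 1.4e-09), which were 1.73-fold and 1.71-fold above TKO, and the WT mean was 1.82-fold that of TKO. The antisense genes VIM-AS1 and AL133415.1 share 12.4% and 12% of the exon bases of VIM. VIM-AS1 averaged 3.35 FPKM in TKO and 2.47 to 2.80 in the vector lines. AL133415.1 averaged 0.393 FPKM in TKO and 0.351 to 0.844 in the vector lines. How reads of the shared bases were divided is not known.

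The 250 bases before the RefSeq start of VIM are shown because this gene moved opposite to the S100 genes above. They lie at chr10:17227991-17228240 (GRCh38.p14, plus strand), before the GENCODE start of the gene, and contain no annotated exon. Capitals again mark GGGCGG, found 46 bases before the start. Neither the TATA box nor the AP-1 motif was found in the window, which held 8 CpG.
VIM: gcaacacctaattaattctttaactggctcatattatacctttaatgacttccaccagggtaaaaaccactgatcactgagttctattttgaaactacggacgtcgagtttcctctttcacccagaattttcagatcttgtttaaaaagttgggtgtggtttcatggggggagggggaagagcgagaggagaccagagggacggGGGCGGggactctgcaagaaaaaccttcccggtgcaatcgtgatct

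ANXA2 varied little. It stood at 252.3, 266.5 and 265.3 FPKM in TKO, at 275.8, 284.1 and 276.3 in WT, at 308.8, 290.2 and 294.0 in D1240A, and at 292.2, 302.0 and 292.9 in F1295A. TKO was lowest, WT came next and the mutant lines were highest and overlapped each other. Against TKO, ANXA2 rose by 0.19 (13.9%) in D1240A with an adjusted p of 5.6e-04 and by 0.18 (13.1%) in F1295A with an adjusted p of 7.5e-04, but on the FPKM as deposited these differences were 0.04 (0.778) and 0.12 (0.340) and were not called. Of its processed pseudogenes, which could take reads from it, ANXA2P2 stayed at 0.994 to 1.52 FPKM, ANXA2P1 at up to 0.161 and ANXA2P3 at 0.

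S100A10, the partner of ANXA2, had a pattern of its own: it was high in the WT libraries and not in those of the mutants. It stood at 5.67, 6.80 and 6.71 FPKM in TKO and at 8.37, 10.2 and 10.2 in WT. In D1240A it was 6.07, 6.43 and 6.74, and in F1295A 6.73, 7.06 and 6.39. Every WT library lay above all 9 others, and TKO, D1240A and F1295A overlapped. Against WT, S100A10 fell by 0.54 in D1240A (SE 0.088, 95% interval -0.73 to -0.35, adjusted p = 0.00162), a call kept in all 23 alternatives (0.00102 to 0.0122). It fell by 0.47 in F1295A (interval -0.67 to -0.28, adjusted p = 0.0170), with adjusted p of 0.0126 to 0.0754 over the alternatives. That call was lost on the FPKM as deposited (0.0592) and without WT replicate 2 (0.0637), WT replicate 3 (0.0754), F1295A replicate 1 (0.0504) or F1295A replicate 3 (0.0659). Against TKO the difference was 0.01 in D1240A (interval -0.19 to 0.20) and 0.07 in F1295A (-0.12 to 0.27), neither called. WT differed from TKO by 0.55.

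The RNA ratio of ANXA2 to S100A10 followed S100A10. It was 41.1 ± 2.95 in TKO, 29.4 ± 3.15 in WT, 46.6 ± 3.86 in D1240A and 44.0 ± 1.62 in F1295A (SD, n = 3). WT libraries reached 33.0 at most, under the 39.2 of the lowest library of any other group. ANXA2 RNA was thus many times more abundant than that of its partner in every library. VIM and S100A11 traded places: the ratio of VIM to S100A11 was 0.636 in TKO, 2.64 in WT, 2.39 in D1240A and 2.22 in F1295A.

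Read over the 7 genes, the mutant lines both differed from TKO in the direction that WT did, apart from S100A10. Between WT and TKO, described without a test, the means of 3 genes were higher in WT (S100A10, ANXA2, VIM) and those of 4 lower, and the libraries of all 7 did not overlap. Of all tested genes 49.7% were called in that contrast, 25.8% higher and 23.9% lower, and 60.3% did not overlap, so nothing is read from these counts. In D1240A against TKO, 2 genes rose (ANXA2, VIM), 4 fell (S100A4, S100A6, S100A11, S100A13) and 1 was not called (S100A10). Of all genes 44.4% were called, 23.3% higher and 21.2% lower. In F1295A against TKO the counts were again 2, 4 and 1, of the genes just named, and 45.6% of all genes were called, 23.9% higher and 21.8% lower. The groups did not overlap for 6 of the 7 genes in either comparison, beside 52.5% of all genes in D1240A and 55.7% in F1295A. The median difference of the 7 genes was -0.24 in D1240A and -0.13 in F1295A, beside 0.01 and 0.00 over all genes. These comparisons share the TKO libraries with each other.

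Against WT, 2 of the 7 genes were called in each mutant line, and nothing is read from these counts. In D1240A 1 gene rose (S100A13), 1 fell (S100A10) and 5 were not called, where 8.20% of all genes rose and 10.9% fell (19.1% in all). In F1295A 1 rose (S100A11), 1 fell (S100A10) and 5 were not called, where 0.895% of all genes rose and 1.81% fell (2.71% in all). Without overlap between groups were 4 genes in each, beside 35.4% and 22.9% of all genes. The medians were -0.07 and 0.07, beside 0.01 and 0.00 over all genes. The 2 comparisons share the WT libraries.

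The calls of S100A13 and S100A11 against WT, like that of S100A10 in F1295A, were lost when any of several single libraries was left out. S100A13 rose by 0.52 in D1240A against WT (interval 0.20 to 0.83, 1.53-fold, adjusted p = 0.0282), with adjusted p of 0.0139 to 0.103 over the alternatives. It was lost without WT replicate 2 (0.0593), WT replicate 3 (0.0960), D1240A replicate 2 (0.0646) or D1240A replicate 3 (0.103), and also on the FPKM as deposited. S100A11 rose by 0.17 in F1295A against WT (interval 0.10 to 0.23, 12.1%, adjusted p = 0.0135), with adjusted p of 0.00783 to 0.716. It was lost without WT replicate 2 (0.0563), WT replicate 3 (0.0599) or F1295A replicate 3 (0.0554), and on the FPKM as deposited (0.716).

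For the other genes the intervals bound what a difference from WT could be. S100A4 differed from WT by -0.15 in D1240A (-0.45 to 0.15) and by 0.12 in F1295A (-0.18 to 0.42). S100A6 differed by -0.07 (-0.16 to 0.02) and 0.05 (-0.04 to 0.14). VIM differed by -0.07 (-0.13 to -0.01, adjusted p = 0.0964) and -0.08 (-0.14 to -0.02, adjusted p = 0.150), with every mutant library under every WT library. ANXA2 differed by 0.09 (0.02 to 0.16, adjusted p = 0.0623) and 0.08 (0.01 to 0.16, adjusted p = 0.207), with every mutant library above every WT library. Its difference in D1240A was called without D1240A replicate 2 (adjusted p = 0.0498, of 0.0498 to 0.875 over the alternatives) and was -0.03 on the FPKM as deposited. S100A11 in D1240A differed from WT by 0.07 (0.01 to 0.14) and S100A13 in F1295A by 0.07 (-0.25 to 0.39), neither called.

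The 2 mutant lines were not told apart by any of the 7 genes at an adjusted p under 0.05 in limma, where 6.09% of all genes were called (3.00% higher in D1240A and 3.09% lower). An unadjusted p under 0.05 was found for 3 of the 7. The share of all genes at that threshold is not given here, so nothing is read from this count. They were S100A6, S100A11 and S100A13, the 3 whose libraries did not overlap between the lines, beside 24.0% of all genes without overlap. S100A13 was 0.45 higher in D1240A than in F1295A (interval 0.13 to 0.76, adjusted p = 0.0949) and was called without D1240A replicate 1 (0.0429, of 0.0429 to 0.283). S100A11 was 0.09 lower (a difference of -0.09, interval -0.16 to -0.03, adjusted p = 0.0956) and S100A6 stood at -0.12 (-0.21 to -0.03, adjusted p = 0.124). For S100A10 the difference was -0.06 (-0.26 to 0.13), for VIM 0.01 (-0.05 to 0.07) and for ANXA2 0.01 (-0.06 to 0.08).

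**Figure D2:**
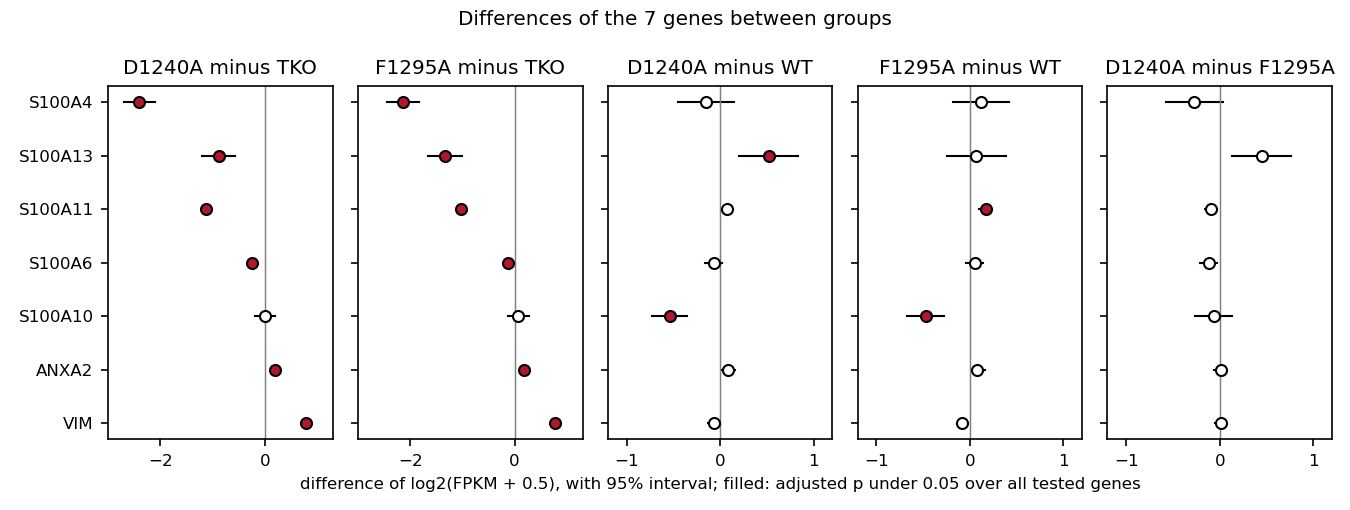
Log2 differences of the 7 genes with 95% intervals in each comparison of groups except WT against TKO, on FPKM + 0.5. The horizontal axis of the panels against TKO is wider than that of the others. S100A4 lies at -2.40 and -2.14 in D1240A and F1295A against TKO, and S100A10 at -0.54 and -0.47 against WT.

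The rest of the S100 family was nearly silent. Of 16 other S100 genes 1, S100A1, was tested, and 8 were at 0 in every library: S100A7, S100A7A, S100A7L2, S100A8, S100A9, S100A12, S100B and S100G. The highest library of the others held 0.609 FPKM, for S100P. S100A1, a regulator of calcium handling in muscle, lies on the strand opposite to S100A13 and shares exon bases with it. It stood at 2.83, 1.06 and 1.44 FPKM in TKO and at up to 0.849 in the vector libraries. S100A1 fell by 1.12 in D1240A against TKO (adjusted p = 0.00580) and by 1.22 in F1295A (adjusted p = 0.00310), and was not called against WT. It thus moved like S100A13, but no source used here states whether counting used the strand, so reads of the pair cannot be told apart.

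Among 12 other annexins, 6 were tested. Against TKO, 4 rose in D1240A (ANXA5, ANXA6, ANXA7, ANXA11) and none fell, and 4 rose in F1295A (ANXA4, ANXA5, ANXA6, ANXA11) while ANXA3 fell. Their median difference was 0.16 in D1240A and 0.21 in F1295A, beside 0.01 and 0.00 over all genes, of which 23.3% and 23.9% rose. ANXA6, the large annexin of membrane and cholesterol traffic, rose from 211.2 FPKM in TKO to 287.3 in D1240A (0.44, adjusted p = 1.0e-06) and 279.5 in F1295A (0.40, adjusted p = 1.9e-06). It also rose against the 252.0 FPKM of WT, by 0.19 (adjusted p = 0.00324) and 0.15 (adjusted p = 0.0459), and was the only annexin called in both. The call in F1295A lay close to the threshold, and how it held in the alternative analyses is not given here. In that comparison 390 genes were called, and 89 on the FPKM as deposited. ANXA5, which binds phosphatidylserine, rose from 139.4 FPKM to 160.5 (0.20, adjusted p = 0.00111) and 164.9 (0.24, adjusted p = 2.8e-04). Against WT, D1240A also had ANXA7 higher (0.18, adjusted p = 0.0217) and ANXA11 lower (-0.22, adjusted p = 0.00513). Of all genes 19.1% were called in D1240A against WT and 2.71% in F1295A, and nothing is read from the counts of annexins. ANXA1, the known partner of S100A11, reached 0.559 FPKM at most and was not tested. ANXA3 and ANXA11 are named here after their values were seen.

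**Figure D3:**
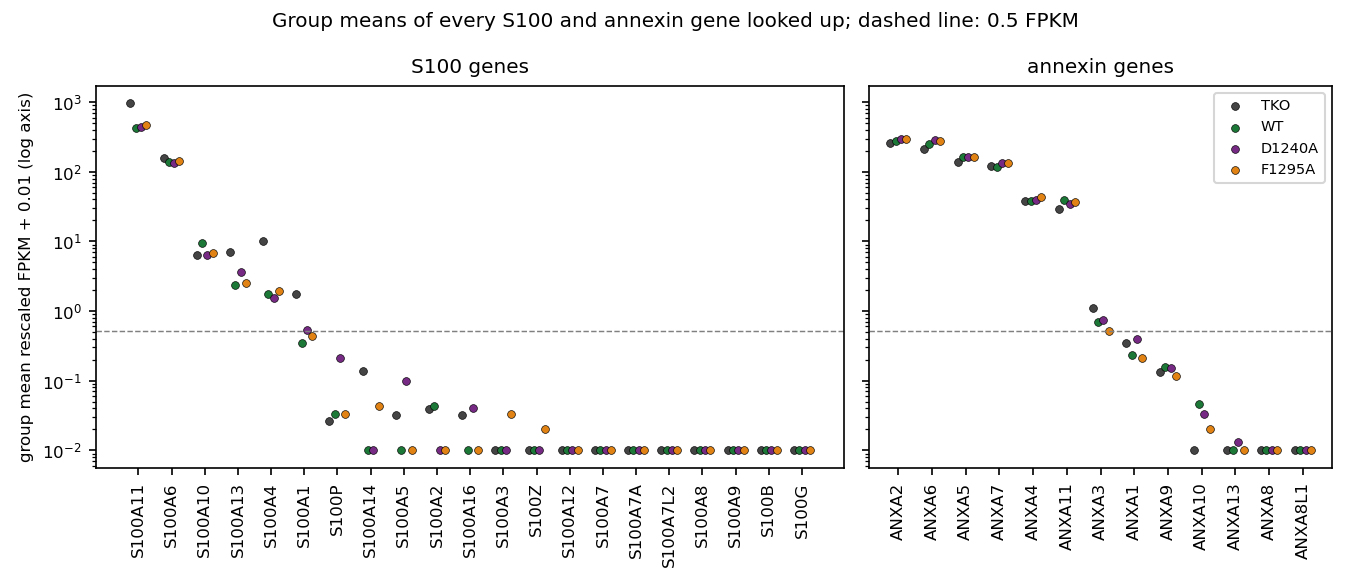
Group means of the rescaled FPKM of S100 and annexin genes, with a small constant added, on a log scale. Of the S100 genes outside the 7 only S100A1 passes the filter, and ANXA6, ANXA5 and ANXA7 stand beside ANXA2 as abundant annexins.

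Other intermediate filament genes and filament linkers did not share the rise of VIM as a group. Of 20 listed, 9 were tested, and their median was -0.05 in D1240A and -0.15 in F1295A against TKO, beside 0.01 and 0.00 over all genes. In D1240A 1 rose (DST) and 4 fell (LMNA, LMNB2, KRT7, SYNM), and in F1295A 3 rose (DST, KRT10, PLEC) and 5 fell (LMNA, LMNB2, KRT7, SYNM, MACF1). Of all genes 23.3% rose and 21.2% fell in D1240A, and 23.9% and 21.8% in F1295A. The nuclear lamin LMNA fell from 119.1 FPKM in TKO to 95.3 in D1240A (-0.32, adjusted p = 6.4e-05) and 98.0 in F1295A (-0.28, adjusted p = 1.6e-04). LMNB2 fell by 0.17 (adjusted p = 0.0132) and by 0.15 (adjusted p = 0.0214). DST, a linker of filaments to actin and microtubules, rose by 0.32 (adjusted p = 0.00412) and 0.34 (adjusted p = 0.00249). The keratin KRT7 stood at 3.78 FPKM in TKO, 0.864 in WT, 2.53 in D1240A and 1.60 in F1295A, and was 1.15 higher in D1240A than in WT (adjusted p = 0.00122).

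The remaining genes of that list were named after their values were seen. SYNM, a filament protein that pairs with vimentin, fell against TKO in D1240A (-0.74, adjusted p = 3.5e-06) and F1295A (-0.70, adjusted p = 4.8e-06). It was the 1 gene of the list that fell against WT, in D1240A (-0.37, adjusted p = 0.00283) and in F1295A (-0.33, adjusted p = 0.0236). Of the 9 tested genes of the list 2 rose against WT in D1240A and none in F1295A. Of all genes 8.20% rose and 10.9% fell in D1240A against WT, and 0.895% and 1.81% in F1295A. Nothing is read from these counts. MACF1, a large linker of actin and microtubules, fell by 0.21 in F1295A against TKO (adjusted p = 0.0134) and rose by 0.39 in D1240A against WT (adjusted p = 9.8e-04). SYNM RNA thus fell in the lines in which VIM RNA rose.

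Of 26 proteins known to bind the 7, or to act with them, 12 were tested. Against TKO, 4 rose (AHNAK, CAPN1, PPFIBP1, SUGT1) and 3 fell (CACYBP, CTSB, HLTF) in D1240A, and 3 rose (CAPN1, PPFIBP1, SUGT1) and 4 fell (AGER, CTSB, HLTF, MYH9) in F1295A. Of all genes 44.4% and 45.6% were called in these comparisons, and the list's medians were 0.16 and 0.01, beside 0.01 and 0.00 over all genes. CTSB, the protease cathepsin B that the annexin A2 complex can hold at the cell surface, fell from 95.3 FPKM to 55.1 in D1240A (-0.79, adjusted p = 5.4e-08) and 58.2 in F1295A (-0.71, adjusted p = 1.1e-07). MYH9, the non-muscle myosin heavy chain bound by S100A4, fell by 0.18 in F1295A (adjusted p = 0.00516). It stood at 123.5 FPKM in TKO and 116.5 in D1240A, where it was not called. The protease gene CAPN1 rose by 0.15 in D1240A (adjusted p = 0.00368) and by 0.13 in F1295A (adjusted p = 0.00864). CACYBP, the partner of S100A6, stood at 279.2 FPKM in TKO and 263.5 in D1240A (-0.08, adjusted p = 0.0401).

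Against WT, 4 of these 12 genes changed in D1240A, where 19.1% of all genes were called. None changed in F1295A, where 2.71% of all genes were called. There limma gave 3 of the 12 an unadjusted p under 0.05. The share of all genes at that threshold is not given here, so nothing is read from this count. CACYBP (-0.12, adjusted p = 0.0149) and CTSB (-0.18, adjusted p = 0.0148) fell in D1240A. The other 2 were AHNAK and PPFIBP1, which, with SUGT1, HLTF and AGER, were named after their values were seen. AHNAK, a giant scaffold protein that the S100A10 and annexin A2 complex binds, rose from 48.3 FPKM in WT to 73.8 in D1240A (0.60, adjusted p = 4.3e-05). PPFIBP1, a liprin that S100A4 binds, fell from 4.60 to 2.66 (-0.68, adjusted p = 0.00606).

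A list of 25 markers of the epithelial-to-mesenchymal transition, with 17 tested, holds genes of both the epithelial and the mesenchymal state. Against TKO, 7 rose and 4 fell in D1240A, and 8 rose and 4 fell in F1295A, where 44.4% and 45.6% of all genes were called. The list's medians were 0.12 and 0.10, beside 0.01 and 0.00 over all genes. CD44, CDH2, FN1, ITGAV, ITGB1, TJP1 and TWIST1 rose in both lines and TGFB1 in F1295A, and MMP9, SERPINE2, TGFBR2 and ZEB2 fell in both. The largest rise was that of CDH2, the mesenchymal cadherin, from 1.03 FPKM in TKO to 9.65 in D1240A (2.74, adjusted p = 5.9e-10) and 9.18 in F1295A (2.67, adjusted p = 5.7e-10). FN1, the matrix protein fibronectin, rose by 1.03 (adjusted p = 5.6e-05) and 1.28 (adjusted p = 8.1e-06). TJP1, a protein of epithelial tight junctions, rose by 0.75 (adjusted p = 1.1e-04) and 0.49 (adjusted p = 0.00220). The largest fall was that of the protease MMP9, by 1.75 (adjusted p = 1.4e-07) and by 2.28 (adjusted p = 1.3e-08). The integrin chain ITGB1 rose by 0.12 in D1240A (adjusted p = 0.0261) and by 0.18 in F1295A (adjusted p = 0.00274). SERPINE2, an inhibitor of extracellular proteases, fell by 0.55 (adjusted p = 9.3e-06) and by 0.85 (adjusted p = 2.3e-07). Against WT, 4 rose (CD44, MMP9, TGFBR2, ZEB2) and 4 fell (EPCAM, FN1, ITGB1, TGFB1) in D1240A, and 3 fell (EPCAM, ITGB1, SERPINE2) and none rose in F1295A, beside 19.1% and 2.71% of all genes called. The markers other than ITGB1, TGFB1, SERPINE2 and ZEB1 were named after their values were seen. ITGB1 fell from 55.4 FPKM in WT to 46.4 in D1240A (-0.26, adjusted p = 9.5e-04) and 48.3 in F1295A (-0.20, adjusted p = 0.0203). ZEB1, a repressor of epithelial genes, held 14.8 to 17.6 FPKM and was called in no comparison.

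The 5 S100 genes lie within 1.65 Mb on the long arm of chromosome 1, all on the minus strand. In GRCh38 S100A10 spans chr1:151982915-151994390 and S100A11 chr1:152032506-152047907, 38.1 kb apart. S100A6 (chr1:153534599-153536244), S100A4 (chr1:153543613-153550136) and S100A13 (chr1:153618787-153631360) follow after a gap of 1487 kb, with 7.37 kb and 68.7 kb between them. ANXA2 lies at chr15:60347134-60402883 on the minus strand and VIM at chr10:17228259-17237593 on the plus strand. The neighbours S100A10 and S100A11 thus differed in the group that stood highest, WT for the first and TKO for the other.

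Over windows of 1 to 2.5 Mb, the drop of S100A4 and S100A11 was not shared by most genes. Among 98 other tested genes within 2.5 Mb of S100A11, the median difference from TKO was 0.02 in D1240A and 0.01 in F1295A. S100A11 lay at -1.12 and -1.03, and 2 and 6 of the 98 lay below it. One of these, chosen after its values were seen, was TCHH, 70.7 kb from S100A11, at -1.28 and -1.48 with a mean of only 1.40 FPKM. Of 28 tested genes within 1 Mb of S100A4, 6 rose and 7 fell in each mutant line against TKO, near the shares of all genes called (44.4% and 45.6%), with medians of -0.04 and 0.01. Yet every tested gene from S100A11 to ILF2, 1626.2 kb from it, lay below TKO in each mutant line. Among them PGLYRP3, S100A1, AL162258.2, CHTOP and SNAPIN fell in each, from -1.12 and -1.22 for S100A1 to -0.12 and -0.14 for CHTOP. ILF2 lay at -0.03 and -0.01, and the next gene, INTS3, rose by 0.11 and 0.13. That stretch was picked after its values were seen, and a shared fall was not tested. Of 31 genes within 1 Mb of S100A10, 1 rose (RFX5, by 0.26) and 2 fell (TUFT1, -0.50, and CGN, -0.49) in D1240A against WT, beside 19.1% of all genes called. None of the 31 was called in F1295A, beside 2.71% of all genes, and there limma gave 3 of them an unadjusted p under 0.05. Nothing is read from that count, since the share of all genes at an unadjusted p under 0.05 is not given here. Of 10 genes within 1 Mb of VIM, 4 rose (TRDMT1, RSU1, PTER and HACD1) and none fell in D1240A against TKO, by 0.17 to 0.60 beside 0.79 for VIM. The 4 also rose in F1295A, by 0.21 to 0.75, and STAM fell by 0.26. The shares of all genes called there were again 44.4% and 45.6%. The genes named around S100A10 and VIM were picked after their values were seen.

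**Figure D4:**
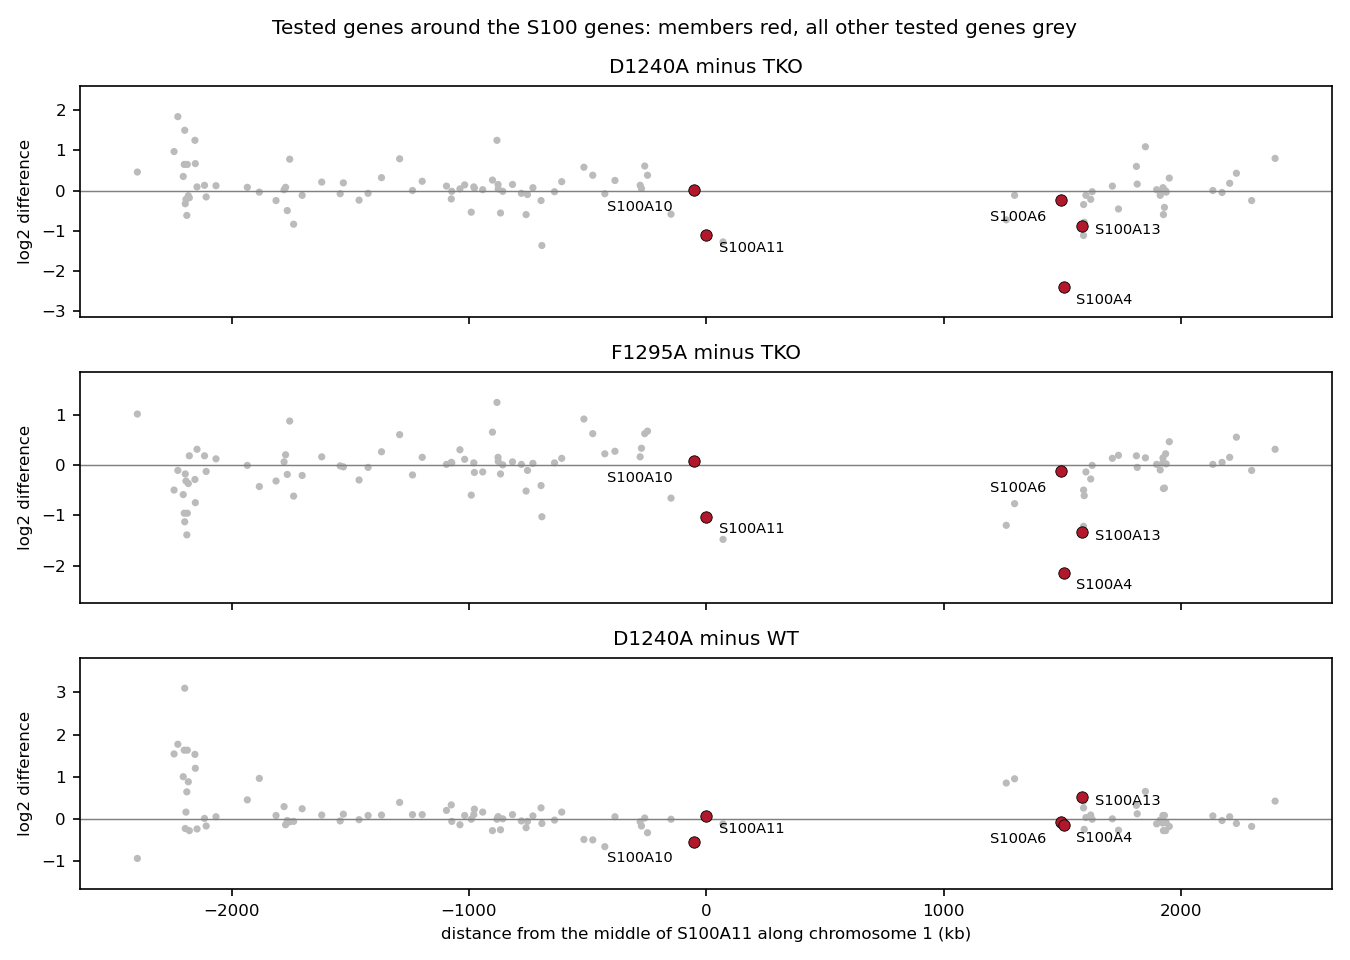
Log2 differences of tested genes within 2.5 Mb of S100A11, plotted by distance from it in kb, with the 5 S100 genes marked. The other 98 genes have medians of 0.02 and 0.01 in D1240A and F1295A against TKO, while S100A11 lies at -1.12 and -1.03.

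The genes with the most similar profiles over the 12 libraries were searched among the 10323 that averaged 2 FPKM or more, by the root-mean-square difference of centred log2 values. The root-mean-square of the member's own profile was 0.352 for VIM, 0.486 for S100A11 and 0.996 for S100A4. Differences are thus not comparable between members without it. For VIM they were CTTN, the actin-binding protein cortactin (0.030, r = 0.997), CARS (0.040) and IDI1 (0.045). CTTN stood at 5.83 FPKM in TKO, 10.9 in WT, 10.2 in D1240A and 10.4 in F1295A. For S100A11 they were RBBP7, a histone-binding subunit of chromatin complexes (0.069), SOX2 (0.072) and QPCT (0.077), and RBBP7 went from 169.0 FPKM in TKO to 77.4, 82.8 and 80.9. For S100A4 they were TRAF3IP3 (0.209), SIK1B (0.211) and ITM2C (0.224), of which ITM2C held 720.5 FPKM in TKO and 137.7 to 160.3 in the vector lines.

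The profiles of the other members had a root-mean-square of 0.245 for S100A10, 0.580 for S100A13, 0.099 for S100A6 and 0.081 for ANXA2. For S100A10 the nearest were AXIN2 (0.11, r = 0.908), RAB23 (0.114, r = 0.904) and the ubiquitin ligase gene RNF103 (0.120, r = 0.911). RNF103 held 15.6 FPKM in TKO, 20.1 in WT, 15.2 in D1240A and 17.2 in F1295A, with WT highest as for S100A10. For S100A13 they were LEF1 (0.175), GK (0.176) and HSH2D (0.177), each with D1240A between TKO and the other vector lines. For S100A6 they were RANBP1 (0.030), VPS25 (0.034) and AP1S1 (0.036), and for ANXA2 they were DYNC1I2 (0.026), FLAD1 (0.028) and THYN1 (0.033). These values describe likeness over libraries that fall into 4 groups, so each r mostly reflects the differences between group means.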

How the data were processed

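Polyadenylated RNA of 12 libraries was measured. Per the submitters' processing notes, the tools were Trimmomatic 0.36, FastQC 0.11.4, STAR 2.7.9a, RSEM 1.3.1 and DESeq2, with the build GRCh38. The deposited table holds a value per gene and library whose unit, read from the values, is FPKM. The sources used here give neither the annotation nor the strand setting. FPKM are not counts, so no count test was run, and the depth is unknown.

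From the deposited FPKM, 7089 structural RNA features were left out. Libraries were scaled to their mean over genes averaging 1 FPKM or more, by log2 ratios of which 30% were trimmed from each side, so a change shared by all genes cannot be seen. Testing covered 14411 genes that reached 0.5 FPKM in 3 or more libraries, by limma 3.58.1 under R 4.3.3 on log2(FPKM + 0.5), with all 12 libraries in 1 model of group means and a variance trend. A gene was called at a Benjamini-Hochberg adjusted p under 0.05 over all tested genes, and "rose" and "fell" mean called. The members, the gene lists and the comparisons were chosen with earlier results of these data known. Other genes named were the 4 of each list with the highest mean FPKM, those of a list called against WT with a log2 difference of at least 1, and the 3 with the profile nearest to each member. Positions and exon overlaps came from GENCODE release 29, and sequences from RefSeq (GRCh38.p14), in which all 7 genes had an entry. The steps were tested on simulated data. Alternatives were another scaling, the values as deposited, other filters and pseudocounts (0.1 and 1), weighted libraries, keeping structural RNAs, removing medians of neighbouring genes, a replicate block, fits on the compared groups alone, and each library left out. Figures were drawn with matplotlib 3.10.9 in Python 3.11.15.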

Additional observations from a re-analysis of the deposited data

How the results depend on the processing

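The depth is unknown, so scarce genes such as S100A4, S100A10 and S100A13 carry a counting error that could not be separated from the library spread. Over 23 alternatives per member and comparison, 921 differences kept their direction and call (for WT against TKO, which has no test, a value within 1 SD), 25 lost a call and 2 gained one. In D1240A against TKO all calls were kept except that of ANXA2, and S100A4, S100A11, S100A13 and VIM also kept theirs in F1295A against TKO. For the causes of the changes below, the cause was not tested.

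The number of the 7 genes called in D1240A against WT was 2, and 1 on the values as deposited, with no filter and with only the compared groups, and 1 to 2 with each library left out. In F1295A against WT it was 2, then 0 on the values as deposited and 0 to 2 with each library left out, and between the mutants 0, then 0 to 1. Of all genes, 2754 were called in D1240A against WT, 1608 as deposited, 1769 with only the compared groups and 1760 to 2830 with each library left out, the lowest without WT replicate 1. In F1295A against WT 390 were called, 89 as deposited, 611 with library weights, 256 with only the compared groups and 149 to 507 with each library left out; counts were over 1.5 times lower without any WT or any F1295A replicate. Between the mutants 878 were called, 63 as deposited, 432 with no filter, 91 with only the compared groups and 305 to 1222 with each library left out. They were over 1.5 times lower without D1240A replicate 2 (373), D1240A replicate 3 (416), F1295A replicate 2 (305) or F1295A replicate 3 (352).

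Small differences that were not called changed sign. S100A10 in D1240A against TKO was -0.01 with median-ratio scaling, -0.13 as deposited and -0.07 (without TKO replicate 1) to 0.05 with each library left out, negative also without D1240A replicate 3 (-0.03). In F1295A against TKO it was -0.01 (without TKO replicate 1) to 0.11. As deposited, D1240A against WT gave -0.05 for S100A11 and -0.03 for ANXA2, and D1240A against F1295A gave -0.08 for both ANXA2 and VIM. Between the mutants, ANXA2 was 0.00 with median-ratio scaling, -0.01 with window medians removed and -0.02 (without D1240A replicate 1) to 0.03 with each library left out, and VIM was 0.00 (without D1240A replicate 1) to 0.02. S100A13 in F1295A against WT was -0.01 (without WT replicate 3) to 0.15, and 0.00 without F1295A replicate 2. The values as deposited shift the median of all genes by -0.14 in D1240A against TKO, -0.11 against WT and -0.08 against F1295A. Between WT and TKO, S100A4 was -2.48 with a pseudocount of 0.1 and -2.03 with 1, and VIM was 0.77 with window medians removed.

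Replicates share only a number. Deviations of libraries with the same number correlated at -0.05 to 0.08 (median 0.03), and those with different numbers at -0.11 to 0.08 (median -0.02). The ranges thus overlapped. Of 12 libraries 10 correlated best with their own number, a hint from the data only. The replicate block changed the call of none of the 7 genes and lowered the calls between the mutants to 525.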
